A study of Mus musculus with 14 samples.

Results

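The collagen and matrix genes are the 56 genes of the array whose own symbol is a collagen chain name (Col, a number, a, a number) or is one of 14 further matrix genes: Lox, Loxl1, Bgn, Dcn, Lum, Fmod, Fn1, Tnmd, Thbs4, Cilp, Comp, Postn, Sparc and Eln. They comprise 42 collagen genes and 14 other genes, on 111 of the 45037 probe sets without controls and among 18193 genes with a probe set of their own symbol. Loxl2 also belongs to the set by name, but its probe sets carry a second symbol, and no value is given for it. RNA came from brain tissue and from quadriceps muscle (vastus lateralis) of mice on an F1 hybrid background of FVB and B6. The groups are PWS-IC del muscle (3 arrays), wild-type muscle (4 arrays), PWS-IC del brain (3 arrays) and wild-type brain (4 arrays), where PWS-IC del is a deletion of the Prader-Willi syndrome imprinting center, the element that controls a cluster of imprinted genes. The wild-type mice were littermates of the same age as the mutants, and no age is given. The labels call the arrays biological replicates and do not tie a muscle array to the brain array of the same mouse. A level below is log2(intensity + 16) of 1 probe set per gene, the one with the highest mean over the 14 arrays, and a difference subtracts the wild-type mean from the PWS-IC del mean unless said otherwise.

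Collagens are triple-helical proteins of the extracellular matrix. Fibril-forming chains build the tensile fibres of tendon and of the connective tissue around muscle fibres, type IV chains build the basement membrane around muscle fibres and vessels, and type VI chains build microfibrils between them. Lysyl oxidases crosslink collagen and elastin, small leucine-rich proteoglycans coat the fibrils, and glycoproteins such as fibronectin, thrombospondins and periostin link matrix to cells. In brain, most matrix of this kind lies in the meninges, the vessel walls and the choroid plexus, while several transmembrane and fibril-associated collagens are made by neurons.

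Median intensities were 88.7 to 96.4 on muscle arrays and 142 to 170 on brain arrays, and arrays of a tissue correlated at 0.981 to 0.991 in muscle and 0.952 to 0.992 in brain. Snrpn, a gene of the cluster that the imprinting center controls, was at 5.03 to 6.48 in PWS-IC del brain, against 10.29 to 10.64 in wild-type brain. Its neighbour Ndn was at 7.47 to 7.73 in PWS-IC del muscle, against 8.69 to 8.99 in wild-type muscle, and neither gene had overlapping groups there. In brain, wild-type 1 and wild-type 2 stood apart on the first principal component (53.1% of the variance, at -93.2 and -35.0, against 12.4 to 37.1 for the other arrays). PWS-IC del 2 of brain held the most cerebellar RNA, with a summed intensity of 8 cerebellum markers of 140026, against 10529 to 22126 on the wild-type brain arrays. Of these markers, Pcp2 was at 16.76 on PWS-IC del 2 and 13.03 on wild-type 3, against 8.19 to 8.79 on the other brain arrays. Gabra6 was at 10.91 and 7.06 on those arrays, against 4.00 to 4.64 on the others. How much cerebellum each brain sample held was not tested. In a bulk sample, fewer cells of a type and less RNA per cell cannot be told apart. The arrays are few. Each p-value sets a difference against the spread between these arrays, moderated over the genes tested, and reaches no further than these samples.

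The promoters of Col24a1 and Cilp are shown because these were the only matrix genes past the test in a comparison of genotypes, Col24a1 in muscle and Cilp in the test of whether the genotype difference differs between muscle and brain, and that of Col1a2 because it stands for the fibril-forming collagens whose levels moved together from array to array. Each sequence is from RefSeq (GRCm38.p6, plus strand) and covers 250 bases before the annotated start and 10 bases from the start on. Capitals mark TGACGTCA, the cAMP response element, in Col24a1 (chr3:145292222-145292481), TATATAA, which resembles the TATA box, in Cilp (chr9:65264930-65265189), and CCAAT, the box read by NF-Y, on either strand in Col1a2 (chr6:4505368-4505627).
Col24a1: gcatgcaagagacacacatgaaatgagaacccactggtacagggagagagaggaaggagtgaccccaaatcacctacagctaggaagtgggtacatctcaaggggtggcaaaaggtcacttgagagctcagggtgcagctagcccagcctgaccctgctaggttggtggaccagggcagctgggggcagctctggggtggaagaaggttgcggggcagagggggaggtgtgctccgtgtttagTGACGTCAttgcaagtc
Cilp: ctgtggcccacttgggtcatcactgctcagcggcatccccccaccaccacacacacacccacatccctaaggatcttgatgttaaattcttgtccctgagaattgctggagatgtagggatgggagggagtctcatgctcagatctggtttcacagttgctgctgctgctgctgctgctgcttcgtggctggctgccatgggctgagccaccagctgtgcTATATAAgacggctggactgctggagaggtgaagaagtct
Col1a2: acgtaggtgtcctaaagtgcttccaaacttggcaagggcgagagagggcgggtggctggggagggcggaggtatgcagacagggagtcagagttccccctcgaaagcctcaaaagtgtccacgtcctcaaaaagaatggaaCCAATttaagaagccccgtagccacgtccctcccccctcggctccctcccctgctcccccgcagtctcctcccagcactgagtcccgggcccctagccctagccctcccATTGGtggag
The motif in Col24a1 began at position -7 and that in Cilp at position -30, counted from the annotated start at 0. Motifs were counted over full promoter windows, which run further past the start than the sequences shown. TGACGTCA reads the same on both strands and was present in 1.79% of 32851 such windows. Among 44 windows of 40 matrix genes it was in 1, that of Col24a1. On either strand, TATATAA was in 3.24% of all windows and in 5 of the 44 matrix windows (Cilp, Col10a1, Col4a6, Postn and Tnmd). CCAAT on either strand was in 37.4% of all windows and in 15 of the 44. TATAAA, the commoner TATA box, was on either strand in 13.6% of all windows and in 6 of the 44. The motifs were chosen after the letters were read, and a match is a description of the sequence. The type IV chain genes lie in head-to-head pairs: the annotated starts of Col4a1 and Col4a2 are 21 bases apart on chromosome 8, and those of Col4a6 and Col4a5 are 1343 bases apart on chromosome X. None of the 56 genes lies on chromosome 7, which holds the imprinted cluster (0 of 56).

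In muscle, 1 matrix gene passed the test and its direction was down: Col24a1, which encodes a fibril-forming collagen known from bone and cornea, fell in PWS-IC del muscle. Of the other 45 genes tested, 31 had a positive difference. Cilp (a cartilage and tendon protein that binds growth factors), Col8a2 (a chain of the short type VIII collagen), Lox (lysyl oxidase) and Col19a1 (a fibril-associated collagen) had the next smallest p and were each higher on average in PWS-IC del muscle without passing. Of the 46 matrix genes bright enough to be tested in muscle, 0 passed upward and 1 downward in limma's moderated test (Benjamini-Hochberg adjusted p under 0.05 over 13644 genes), where 0.117% of all genes tested passed in either direction, 0.0147% upward and 0.103% downward. At an unadjusted p under 0.05 there were 9 of the 46, against 1629 of the 13644. The difference was positive for 31 of the 46 with a median of 0.11, against 54.1% of all genes tested with a median of 0.02. Over all 111 matrix probe sets, with no filter, 74 were positive (66.7%), against 49.0% of all 45037. The median over the 46 genes depended on single arrays: it was 0.04 without PWS-IC del 2, 0.28 without PWS-IC del 3 and 0.07 without wild-type 3.

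Col24a1 was at 6.52, 6.22 and 6.37 in PWS-IC del muscle, against 7.09, 7.51, 7.29 and 7.23 in wild-type muscle. All 3 mutant arrays lay below all 4 wild-type arrays. The difference was -0.91 ± 0.12 (SE, limma adjusted p = 0.036). The direction held when any 1 array was left out (-0.98 to -0.83), but the adjusted p was over the threshold without any of wild-type 1, 3 and 4 or PWS-IC del 1, 2 and 3 (0.0635 to 0.159) and under it only without wild-type 2 (0.0415). It was also over the threshold without a filter on low values (0.0586), in the fit of both tissues together (0.387) and without PWS-IC del 2 and wild-type 2 together (0.143). The fit of both tissues takes 1 estimate of the spread from muscle and brain arrays together. With a filter at the 0.5 quantile, the 1 matrix gene called in muscle was Cilp, not Col24a1. Col24a1 rests on 1 probe set, as does Cilp. In brain Col24a1 was too dim to be tested, at 5.32, 5.56 and 5.54 in PWS-IC del and 7.53, 5.94, 5.78 and 5.53 in wild-type, where wild-type 1 was high and the other 3 wild-type arrays reached down to the mutant level.

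**Figure D1:**
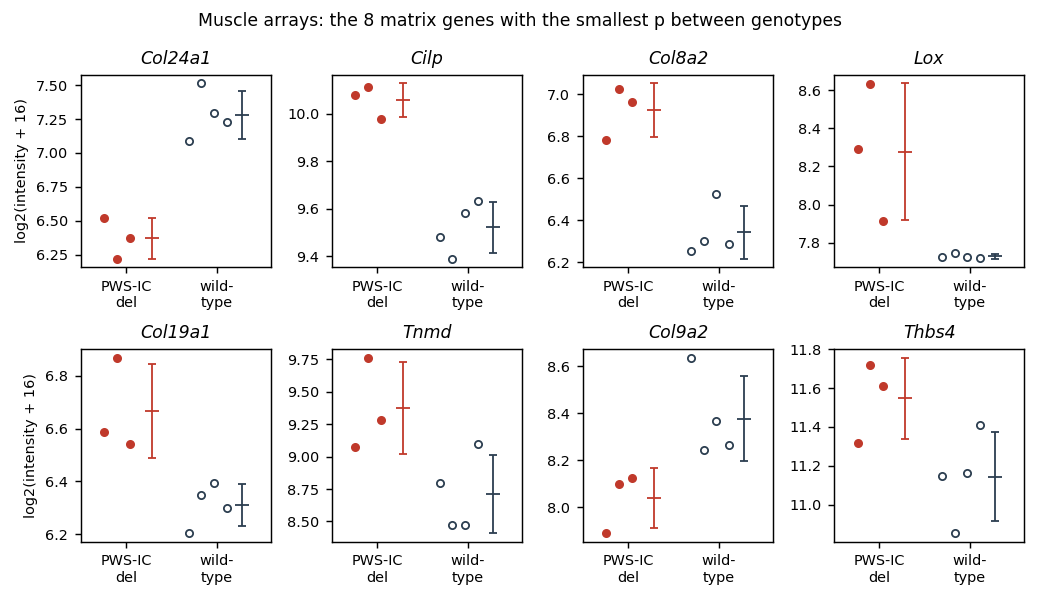
Levels, as log2(intensity + 16), of the 8 matrix genes with the smallest p in muscle, with PWS-IC del arrays as filled points and wild-type arrays as open points, and the mean ± SD beside each group. Col24a1 is the only 1 of the 8 past the adjusted threshold, and Tnmd and Thbs4 are the only 2 whose groups overlap.

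Among the other fibril-forming collagens, the major chains of connective tissue varied more between arrays than between genotypes. Col1a1, the main chain of type I collagen, was at 10.27, 11.18 and 9.30 in PWS-IC del muscle, against 9.46, 10.25, 9.21 and 9.37 in wild-type muscle. Its partner chain Col1a2 was at 11.47, 12.07 and 10.76 in PWS-IC del, against 11.08, 11.48, 10.80 and 10.97 in wild-type. Col3a1, the type III chain of compliant tissue, was at 12.01, 12.94 and 11.20 in PWS-IC del, against 11.66, 12.57, 11.25 and 11.48 in wild-type. In each of these genes PWS-IC del 2 was the highest array and wild-type 2 was high within its group, while PWS-IC del 3 was level with or below the lower wild-type arrays. The differences were 0.67 ± 0.41 for Col1a1, 0.35 ± 0.29 for Col1a2 and 0.31 ± 0.42 for Col3a1 (SE, limma adjusted p 0.558, 0.651 and 0.803). Col1a1 was at 0.21 without PWS-IC del 2 and at 1.15 without PWS-IC del 3, and Col3a1 turned to -0.14 without PWS-IC del 2. Of the 9 tested fibril-forming genes 7 had a positive difference (median 0.24), and the chains Col5a1, Col5a2 and Col5a3, which set fibril diameter with type I, were at 0.24, 0.40 and 0.10.

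The share of matrix genes that peaked on the same array was large. PWS-IC del 2 was the highest muscle array in 21 of the 46 tested matrix genes (45.7%), against 12.8% of all genes tested. The mean deviation of the 9 fibril-forming genes from their own tissue means was 0.48 on PWS-IC del 2 and -0.35 on PWS-IC del 3, and 0.37 on wild-type 2. The same arrays carried the most fat-cell RNA: the summed intensity of 6 fat-cell markers was 22272, 30632 and 8815 in PWS-IC del muscle, against 9909, 25808, 14051 and 10474 in wild-type muscle. The summed intensity of 8 fibroblast markers was 19635, 19421 and 11722 in PWS-IC del, against 13555, 16984, 13576 and 12952 in wild-type, and 7 of 7 tested markers had a positive difference, 0 of them past the test. The summed intensity of 13 macrophage markers was 10557, 10071 and 6768 in PWS-IC del, against 7046, 8159, 6235 and 6448 in wild-type, and 12 of 13 had a positive difference (median 0.42), 0 past the test. PWS-IC del 3 was the lowest of the mutant arrays in fibril-forming collagens, fibroblast markers and fat-cell markers alike. The part of these cells in the collagen values was not tested.

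**Figure D2:**
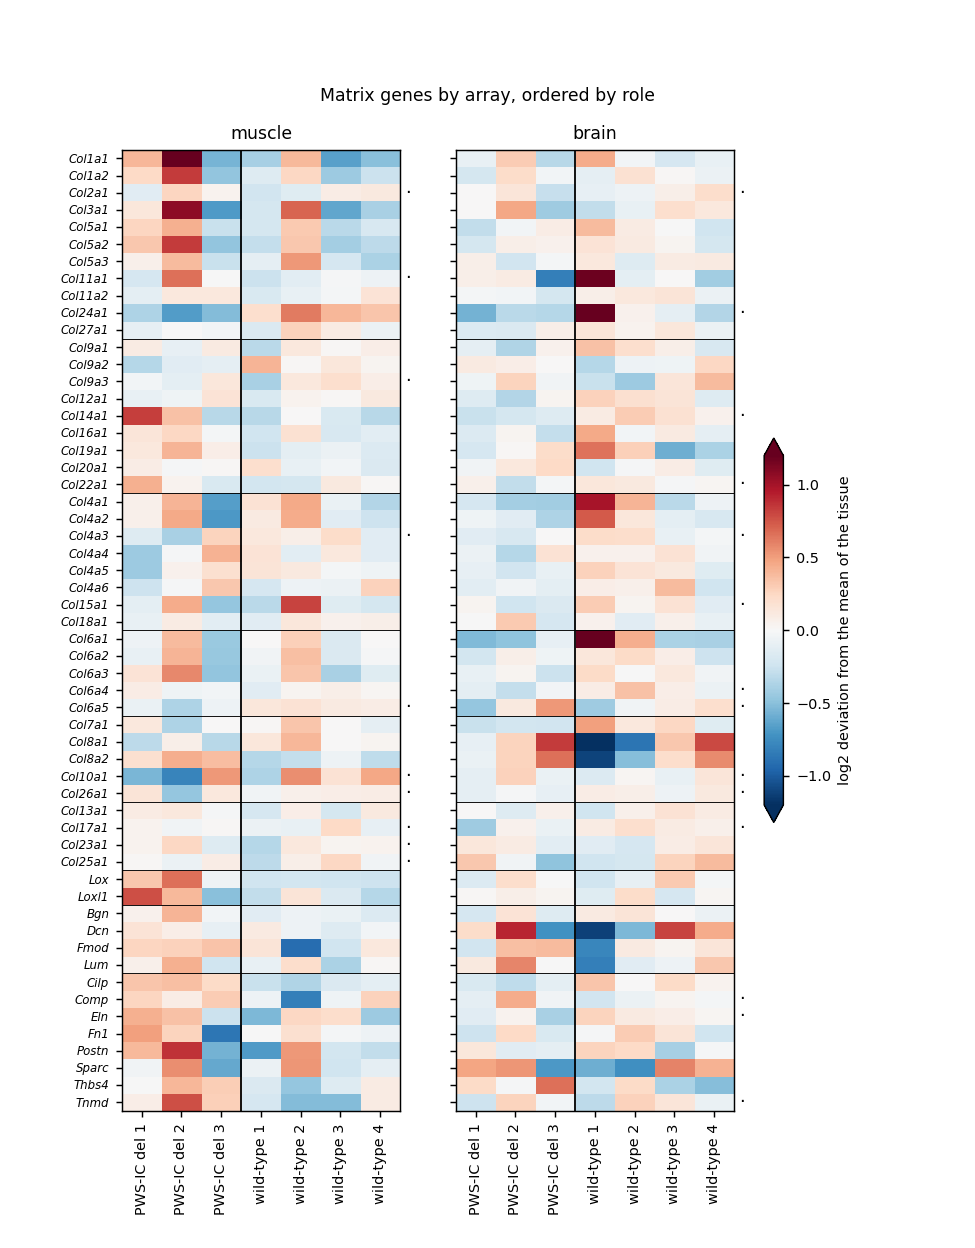
Deviation of each of the 56 matrix genes, in log2 units, from its mean over the 7 arrays of a tissue, ordered by role, with PWS-IC del arrays to the left of the wild-type arrays. Dots beside a panel mark genes too dim to be tested in that tissue, values past the ends of the scale take the end colours, and the fibril-forming block is reddest on PWS-IC del 2 in muscle.

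The crosslinking enzymes and the small leucine-rich proteoglycans had positive differences throughout in muscle. Lox, which crosslinks collagen and elastin, was at 8.29, 8.63 and 7.91 in PWS-IC del muscle, against 7.72, 7.75, 7.73 and 7.72 in wild-type muscle. The 4 wild-type arrays lay within a narrow band and all 3 mutant arrays lay above it, with a wide spread of their own. The difference was 0.55 ± 0.15 (SE, limma adjusted p = 0.224), and the 3 Lox probe sets ranged from 0.33 to 0.64. Loxl1, its relative in elastic fibres, was at 0.39 ± 0.27 (adjusted p = 0.601). Fmod (fibromodulin) and Bgn (biglycan), proteoglycans that bind collagen fibrils, also separated the genotypes, at 0.51 ± 0.24 and 0.25 ± 0.11 (adjusted p 0.444 and 0.425). Fmod had 6 probe sets and all 6 were positive in muscle, at 0.51 to 0.60. Dcn (decorin) was at 13.24, 13.16 and 12.98 in PWS-IC del muscle, against 13.19, 13.02, 12.92 and 13.05 in wild-type muscle, with overlapping groups and a difference of 0.08 ± 0.10.

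Of the glycoproteins, 6 of 8 had a positive difference in muscle (median 0.39), and those known from tendon and cartilage were Cilp, Tnmd, Thbs4 and Comp. Cilp was at 10.08, 10.11 and 9.98 in PWS-IC del muscle, against 9.48, 9.39, 9.58 and 9.63 in wild-type muscle. The groups did not overlap and both were tight. The difference was 0.54 ± 0.09 (SE, limma adjusted p = 0.0713), and it passed the threshold in 5 of the alternative settings (adjusted p 0.00455 to 0.0481). Tnmd (tenomodulin, a tendon membrane protein) was at 9.07, 9.76 and 9.29 in PWS-IC del muscle, against 8.80, 8.47, 8.47 and 9.10 in wild-type muscle. PWS-IC del 1 lay just under wild-type 4, and the difference was 0.66 ± 0.20 (adjusted p = 0.284). Thbs4, thrombospondin 4 of tendon and muscle attachment sites, was at 11.32, 11.72 and 11.61 in PWS-IC del, against 11.15, 10.85, 11.16 and 11.41 in wild-type, again with 1 overlapping pair of arrays (0.40 ± 0.15, adjusted p = 0.337). Comp, a cartilage and tendon protein of the same family, was at 0.38 ± 0.23 (adjusted p = 0.541).

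The list of tendon-cell markers was uneven. The summed intensity of 8 tendon-cell markers was 6587, 7847 and 7435 in PWS-IC del muscle, against 5987, 4015, 5307 and 6588 in wild-type muscle. Fmod, Tnmd and Thbs4 belong to both lists and carry most of that sum, so it is no separate measure of them. Of the 5 markers outside the matrix set, Mkx and Cilp2 had positive differences (0.20 and 0.19) and Scx, Egr2 and Chodl negative ones (-0.13, -0.11 and -0.04). Cilp2 was at 7.89, 8.08 and 7.95 in PWS-IC del, against 7.71, 7.81, 7.83 and 7.81 in wild-type, and Scx, the transcription factor that defines tendon cells, was at 6.68, 6.95 and 6.72 in PWS-IC del, against 6.72, 6.69, 6.97 and 7.28 in wild-type. Mkx was at 6.74, 6.51 and 6.72 in PWS-IC del, against 6.42, 6.48, 6.45 and 6.47 in wild-type. Thus Cilp2 and Mkx separated the groups upward, as 6.31% of all genes tested did, and Scx, Egr2 and Chodl did not separate them. How much tendon each dissection held was not tested.

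Eln, Fn1 and Sparc showed no separation in muscle. Eln (elastin) was at 7.69, 7.62 and 7.02 in PWS-IC del, against 6.73, 7.52, 7.48 and 6.83 in wild-type (0.30 ± 0.24). Fn1 (fibronectin) was at 10.40, 10.18 and 9.05 in PWS-IC del, against 9.91, 10.10, 9.89 and 9.85 in wild-type (-0.06 ± 0.28). Sparc, a collagen-binding glycoprotein, was at 12.21, 12.82 and 11.64 in PWS-IC del, against 12.19, 12.79, 12.02 and 12.15 in wild-type (-0.06 ± 0.28). PWS-IC del 3 was the lowest array of the tissue for Fn1 and for Sparc. Without that array Fn1 was at 0.35 and Sparc at 0.23. Postn (periostin), a matricellular protein, was at 0.40 ± 0.36.

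The 2 chains of type VIII collagen, which assemble into short networks in vessel walls and beneath some epithelia, had opposite signs in muscle. Col8a2 was at 6.78, 7.03 and 6.96 in PWS-IC del muscle, against 6.25, 6.30, 6.53 and 6.29 in wild-type muscle. Every mutant array was above every wild-type array, by a difference of 0.58 ± 0.10 (SE, limma adjusted p = 0.0811). Col8a1 was at 6.95, 7.33 and 6.93 in PWS-IC del, against 7.40, 7.66, 7.27 and 7.29 in wild-type, with overlapping groups and a difference of -0.34 ± 0.13 (adjusted p = 0.372). The 3 probe sets of Col8a1 disagreed and ranged from -0.50 to 0.11.

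The basement membrane collagens had 6 of 7 tested members at a negative difference in muscle (median -0.08), all within their own error. Col4a1, a chain of the type IV network of every basement membrane, was at 10.14, 10.49 and 9.41 in PWS-IC del muscle, against 10.24, 10.54, 9.99 and 9.72 in wild-type muscle (-0.11 ± 0.27, adjusted p = 0.898). Col4a2, which shares its promoter region and forms the same trimer, was at 9.88, 10.28 and 9.13 in PWS-IC del, against 9.93, 10.26, 9.68 and 9.57 in wild-type (-0.10 ± 0.27, adjusted p = 0.913). Both chains had the same order of the mutant arrays, and each turned positive without PWS-IC del 3 (0.19 and 0.22) or without wild-type 2 (0.03 for each). Beside them, all 12 endothelial markers tested in muscle had negative differences, none past the test (0 of 12), with summed intensities of 5146, 4678 and 3794 in PWS-IC del, against 5851, 6494, 5510 and 5072 in wild-type. The summed intensity of 9 pericyte and smooth muscle markers was 12573 to 13844 in PWS-IC del, against 15518 to 17875 in wild-type. The part of vessel content in the type IV values was not tested. Among the type VI microfibril chains, Col6a1 was at 10.05, 10.49 and 9.66 in PWS-IC del, against 10.10, 10.39, 9.93 and 10.11 in wild-type (-0.07 ± 0.19), and Col6a2 and Col6a3 were at -0.08 ± 0.20 and 0.16 ± 0.25.

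The fibril-associated collagens, which sit on fibril surfaces, held 1 gene that separated upward and 1 that separated downward in muscle. Col19a1 was at 6.59, 6.87 and 6.54 in PWS-IC del muscle, against 6.21, 6.35, 6.39 and 6.30 in wild-type muscle (0.36 ± 0.10, adjusted p = 0.24). Col9a2, a chain of type IX collagen of cartilage fibrils, was at 7.89, 8.10 and 8.13 in PWS-IC del, against 8.64, 8.24, 8.37 and 8.26 in wild-type (-0.34 ± 0.12, adjusted p = 0.311). Neither gene had overlapping groups. Col14a1, which links fibrils in tendon and skin, was at 9.78, 9.31 and 8.63 in PWS-IC del, against 8.63, 8.96, 8.78 and 8.62 in wild-type (0.49 ± 0.24, adjusted p = 0.462). Over the 46 tested matrix genes, the groups did not overlap upward for 6 (Bgn, Cilp, Col19a1, Col8a2, Fmod and Lox) and downward for 2 (Col24a1 and Col9a2), where 6.31% and 5.86% of all genes tested did so (12.2% in either direction). The exact permutation test on 3 and 4 arrays cannot give a p below 0.0286. The 10 genes too dim to be tested in muscle were Col10a1, Col11a1, Col17a1, Col23a1, Col25a1, Col26a1, Col2a1, Col4a3, Col6a5 and Col9a3.

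**Figure D3:**
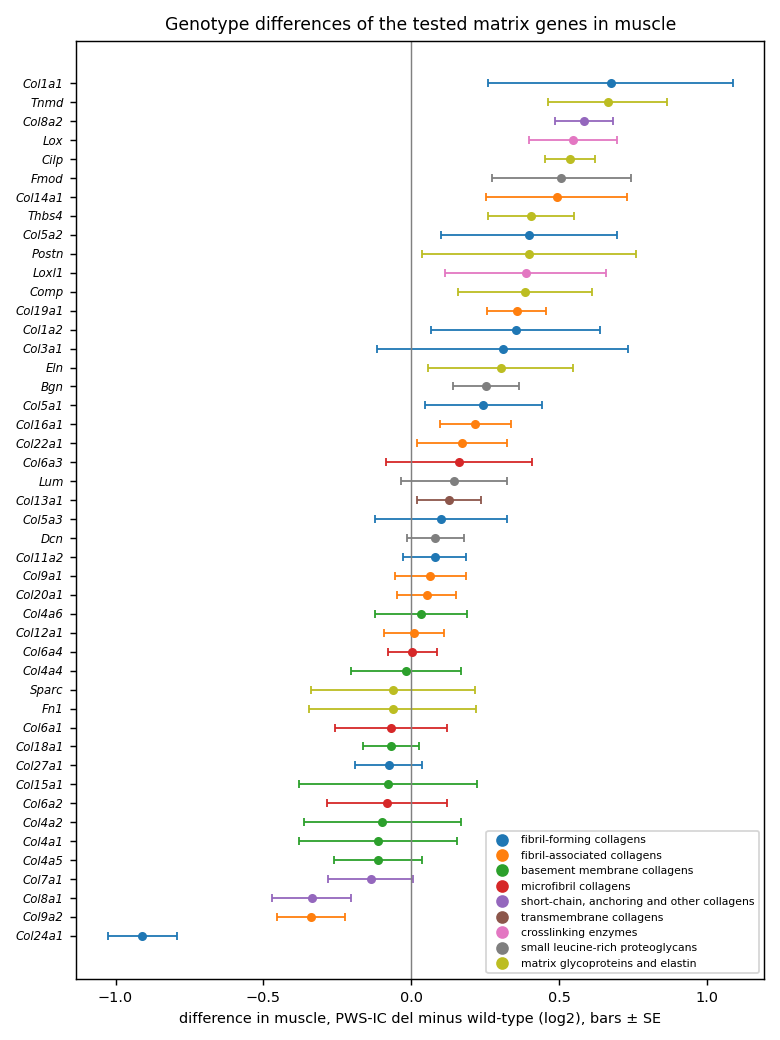
Difference in muscle, PWS-IC del minus wild-type in log2 units, with ± SE, for the 46 matrix genes tested, coloured by role and ordered by size. Positive differences (31 genes) reach 0.67 at Col1a1, and Col24a1 at -0.91 lies apart from the other 14 negative ones.

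Other genes of the matrix pathway were read from 7 lists, and limma's test called 0 of their members in muscle and 0 in brain. Of the other proteoglycans and glycoproteins, 17 of 19 tested had a positive difference in muscle (median 0.18). Among them Abi3bp, an adhesion protein, was at 9.71, 9.87 and 9.57 in PWS-IC del, against 9.09, 9.30, 9.20 and 9.23 in wild-type (0.52, adjusted p = 0.0956). Chad (chondroadherin, a cartilage and tendon protein) was at 8.25, 8.39 and 8.39 in PWS-IC del, against 7.48, 6.71, 7.59 and 7.99 in wild-type (0.90, adjusted p = 0.246). Thbs1, a thrombospondin that activates TGF-beta, was at 0.66 (adjusted p = 0.106), and these 3 genes separated the genotypes.

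Of the TGF-beta signalling genes, 11 of 16 were positive in muscle (median 0.06). Their ligand gene Tgfb3 was at 9.67, 9.69 and 9.44 in PWS-IC del muscle, against 10.11, 10.10, 10.21 and 10.11 in wild-type muscle (-0.53, adjusted p = 0.0727). The target Ccn2, a matricellular growth factor, averaged 9.68 ± 0.28 in PWS-IC del (SD, n = 3) and 8.88 ± 0.35 in wild-type (SD, n = 4), with no overlap (0.80, limma adjusted p = 0.206). Ligand and target separated the groups in opposite directions. Of the elastic fibre genes 9 of 12 were positive (median 0.15), and Mfap2, a microfibril protein, was at 0.38 (adjusted p = 0.187). The other basement membrane genes were evenly divided, at 7 of 14, with the proteoglycan genes Agrn (agrin, of the neuromuscular junction) at -0.44 (adjusted p = 0.0972) and Hspg2 (perlecan) at -0.29 (adjusted p = 0.356).

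The receptors were positive in 4 of 14 genes (median -0.03). Ddr1, a collagen-activated receptor kinase, was at 9.95, 10.20 and 10.23 in PWS-IC del muscle, against 10.43, 10.68, 10.53 and 10.50 in wild-type muscle (-0.41, adjusted p = 0.189), and the syndecan gene Sdc4 was at -0.30 (adjusted p = 0.284), both without overlap. Collagen synthesis genes were positive in 16 of 24 (median 0.05), and the smallest p belonged to Plod2, a lysyl hydroxylase, at -0.48 (adjusted p = 0.289). Proteases and inhibitors were positive in 12 of 16 (median 0.07), led by Adamts1 at -0.34 and Reck at 0.32. At an unadjusted limma p under 0.05 in muscle there were 4 of 19 proteoglycans and glycoproteins and 3 of 12 elastic fibre genes. The others were 3 of 14 basement membrane genes, 3 of 16 TGF-beta signalling genes and 2 of 24 synthesis genes. Proteases and inhibitors had 2 of 16 and receptors 2 of 14, where 1629 of all 13644 genes tested were under it. The groups did not overlap upward for 6.31% and downward for 5.86% of all genes tested.

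In brain, 0 of 42 tested matrix genes passed limma's test, where 0.066% of all 13644 genes tested passed, 0.00733% upward and 0.0586% downward. At an unadjusted p under 0.05 there were 3 of the 42, against 1119 of the 13644, and no alternative setting called a matrix gene there. The difference was positive for 16 of the 42 (median -0.09), against 61.9% of all genes tested (median 0.06). The median was -0.04 without PWS-IC del 1 and -0.05 without wild-type 2. The groups did not overlap upward for 0 genes and downward for 2 (Cilp and Col7a1), where 5.78% and 2.87% of all genes tested did so (8.66% in either direction). The 14 genes too dim to be tested in brain were Col10a1, Col14a1, Col15a1, Col17a1, Col22a1, Col24a1, Col26a1, Col2a1, Col4a3, Col6a4, Col6a5, Comp, Eln and Tnmd.

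The smallest p in brain was that of Cilp, at 7.78, 7.66 and 7.85 in PWS-IC del brain, against 8.30, 7.97, 8.19 and 8.01 in wild-type brain (-0.35 ± 0.11, SE, limma adjusted p = 0.556). Col7a1, the collagen of anchoring fibrils, was at 7.27, 7.32 and 7.31 in PWS-IC del, against 8.03, 7.67, 7.79 and 7.40 in wild-type (-0.42 ± 0.15, adjusted p = 0.556). In both genes every mutant array was below every wild-type array. On the wild-type arrays Cilp had the same order as the summed intensity of 12 skeletal muscle fibre markers (13115, 5328, 10978 and 5359). That sum was 4825, 9134 and 5978 in PWS-IC del brain. The part of muscle content in the Cilp values was not tested. Thbs4, which astrocytes also secrete, was at 7.34, 7.10 and 7.78 in PWS-IC del, against 6.89, 7.35, 6.73 and 6.60 in wild-type (0.51 ± 0.21, adjusted p = 0.556), with wild-type 2 inside the mutant range.

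Several other genes with low values in PWS-IC del brain were highest on wild-type 1. Col6a1 was at 8.15, 8.20 and 8.58 in PWS-IC del brain, against 10.14, 9.12, 8.31 and 8.29 in wild-type brain (-0.65 ± 0.41, adjusted p = 0.579). Col4a1 was at 8.24, 8.03 and 8.02 in PWS-IC del, against 9.43, 8.85, 8.12 and 8.38 in wild-type (-0.59 ± 0.27, adjusted p = 0.556), and Col4a2 at 8.65, 8.56 and 8.33, against 9.43, 8.84, 8.58 and 8.51 (-0.33 ± 0.21). In these 3 genes wild-type 1 was highest and wild-type 2 next, and wild-type 3 or 4 lay within or beside the mutant range. Without wild-type 1 and 2 the differences were 0.01 for Col6a1, -0.15 for Col4a1 and -0.03 for Col4a2. Col4a5, Col12a1 and Col16a1 were at -0.24 ± 0.12, -0.27 ± 0.14 and -0.24 ± 0.15. Col4a5, a type IV chain of specialised basement membranes, was at 7.35, 7.21 and 7.35 in PWS-IC del, against 7.72, 7.61, 7.55 and 7.29 in wild-type. Col12a1, a fibril-associated collagen, was at 7.62, 7.42 and 7.81 in PWS-IC del, against 8.06, 7.97, 7.94 and 7.62 in wild-type, and Col16a1, another, at 7.68, 7.88 and 7.56, against 8.30, 7.81, 7.95 and 7.74. Wild-type 4 fell inside the mutant range in all 3 of these genes. Wild-type 1 was the highest brain array in 18 of the 42 tested matrix genes (42.9%), against 16.3% of all genes tested. Vessel markers were also low in PWS-IC del brain: the summed intensity of 9 pericyte and smooth muscle markers was 3660, 3561 and 3611 in PWS-IC del, against 5729, 5231, 4316 and 3935 in wild-type, and that of 12 endothelial markers was 2577, 2823 and 2460, against 3744, 4030, 3250 and 2627. Of the tested markers, 0 of 7 and 0 of 10 had a positive difference, and 0 passed. The summed intensity of 12 skeletal muscle fibre markers was 4825, 9134 and 5978 in PWS-IC del, against 13115, 5328, 10978 and 5359 in wild-type. It was highest on wild-type 1. The list holds Pvalb, also on the cerebellum list, at 12.87 on PWS-IC del 2 and 11.34 to 11.97 on the other brain arrays. Of 11 fibre markers tested in brain, 1 had a positive difference, Pvalb (median -1.22). The fibre marker Ckm was at 6.38, 6.61 and 6.63 in PWS-IC del, against 10.38, 7.04, 9.61 and 7.25 in wild-type. The part of vessel and muscle content in these collagen values was not tested.

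The type VIII chains followed another order of arrays in brain, close to that of markers of the choroid plexus, the tissue that makes cerebrospinal fluid. The summed intensity of 8 choroid plexus markers was 9589, 13037 and 17630 in PWS-IC del brain, against 4224, 4545, 16050 and 18483 in wild-type brain. Col8a1 was at 7.48, 7.84 and 8.42 in PWS-IC del, against 6.34, 6.70, 7.90 and 8.37 in wild-type, and Col8a2 at 7.04, 7.39 and 7.79, against 6.01, 6.61, 7.34 and 7.70. In the marker sum and in both chains wild-type 1 was lowest, wild-type 2 was next and PWS-IC del 1 followed, while PWS-IC del 3 and wild-type 4 were the highest arrays. Col9a3, a type IX chain, shared only the low values of wild-type 1 and 2, at 6.90, 7.22 and 6.91 in PWS-IC del and 6.69, 6.51, 7.10 and 7.34 in wild-type. The part of choroid plexus content in these values was not tested.

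**Figure D4:**
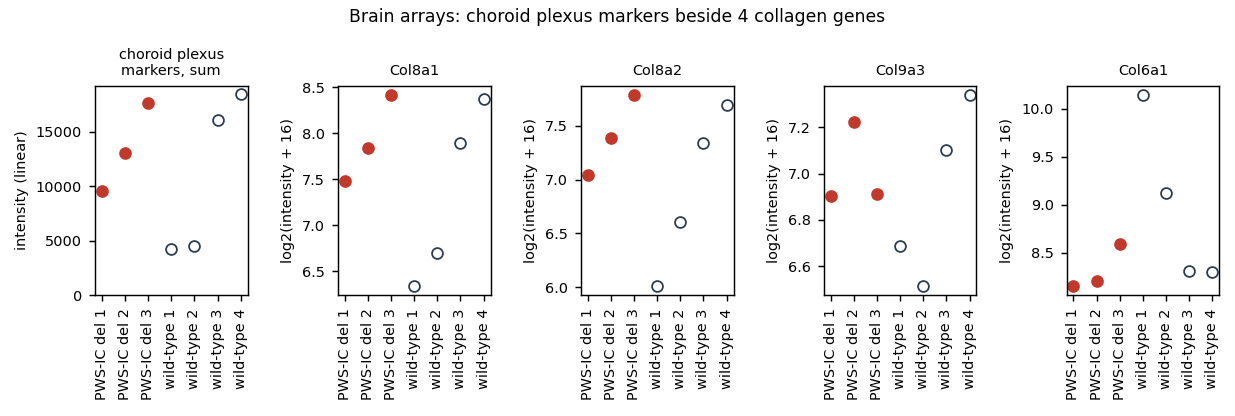
Summed linear intensity of 8 choroid plexus markers, and levels of Col8a1, Col8a2, Col9a3 and Col6a1 as log2(intensity + 16), on each brain array, with PWS-IC del arrays as filled points and wild-type arrays as open points. The marker sum, Col8a1 and Col8a2 are lowest on wild-type 1 (4224, 6.34 and 6.01), where Col6a1 is highest (10.14).

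The major fibril-forming chains showed little in brain. Col1a1 was at 7.21, 7.61 and 6.97 in PWS-IC del brain, against 7.75, 7.27, 7.10 and 7.21 in wild-type brain (-0.07 ± 0.19). Col1a2 was at 8.88, 9.31 and 9.06 in PWS-IC del, against 8.99, 9.27, 9.11 and 9.02 in wild-type (-0.01 ± 0.13). Col3a1 was at 7.36, 7.81 and 6.92 in PWS-IC del, against 7.05, 7.26, 7.55 and 7.48 in wild-type (0.03 ± 0.21). The groups overlapped in all 3 genes. A second probe set of Col3a1 gave 0.66 in brain with no overlap, so the 2 probe sets of that gene disagree.

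Sparc and Dcn divided the brain arrays across the genotypes. Sparc was at 13.41, 13.46 and 12.24 in PWS-IC del brain, against 12.35, 12.20, 13.52 and 13.35 in wild-type brain (0.18 ± 0.40). Dcn was at 10.50, 11.19 and 9.55 in PWS-IC del, against 9.16, 9.74, 11.09 and 10.73 in wild-type (0.24 ± 0.50). In both genes PWS-IC del 3, wild-type 1 and wild-type 2 were low and the other 4 arrays high. Without wild-type 1 and 2 the differences were -0.40 for Sparc and -0.49 for Dcn. Fn1 was at 9.09, 9.58 and 9.16 in PWS-IC del, against 9.33, 9.64, 9.49 and 9.10 in wild-type (-0.11 ± 0.17), and Lox at 6.72, 7.10 and 6.89, against 6.65, 6.79, 7.21 and 6.86 (0.03 ± 0.15).

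In the pathway lists, the brain gene with the smallest p in collagen synthesis was Serpinh1, the collagen chaperone HSP47, at 9.42, 9.29 and 9.25 in PWS-IC del brain, against 8.23, 8.63, 8.93 and 9.22 in wild-type brain (0.57, adjusted p = 0.556). The groups did not overlap, although wild-type 4 reached nearly to the mutant level. Matn2 (matrilin 2) and Omd (osteomodulin) were at 0.52 and 0.49, and Tnxb (tenascin X), which stabilises fibrils, was at -0.22, each with an adjusted p of 0.556. By list, positive differences were found in 10 of 23 synthesis genes, 6 of 15 proteases and inhibitors, 9 of 13 receptors, 3 of 12 basement membrane genes, 8 of 14 proteoglycans and glycoproteins, 4 of 9 elastic fibre genes and 11 of 15 TGF-beta signalling genes.

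Whether the genotype differences themselves differed between the tissues was tested as an interaction over the 14 arrays, as the difference in muscle minus the difference in brain. Cilp was the 1 matrix gene of 50 tested that passed, where 0.0803% of 14951 genes tested passed in either direction, 0.0602% upward and 0.0201% downward. Its genotype difference was 0.54 in muscle and -0.35 in brain, and the interaction was 0.89 (limma adjusted p = 0.027). Every PWS-IC del array was above the wild-type arrays in muscle and below them in brain. The part of muscle fibre content in the brain values of Cilp was not tested. Leaving out any of 9 of the 14 arrays took the adjusted p over the threshold (up to 0.109): these were wild-type 1, 2 and 3 and PWS-IC del 1 and 2 of muscle and wild-type 3 and all PWS-IC del arrays of brain. It was also over the threshold after quantile normalization (0.0728) and median centring (0.0536), and the interaction kept its sign in all 24 alternatives (0.76 to 0.94). Over the 50 genes the interaction was positive for 40 (median 0.23), against 42.6% of all genes tested (median -0.04). That median was 0.15 without PWS-IC del 2 of muscle.

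Between the tissues the matrix genes differed far more than between genotypes. In wild-type muscle set against wild-type brain, 41 of the 50 tested matrix genes passed, 29 higher in muscle and 12 lower, where 82.3% of all 14951 genes tested passed, 22.8% higher and 59.5% lower. The wild-type groups did not overlap upward for 26 of the 50 and downward for 10, against 20.9% and 56.3% of all genes tested (77.2% in either direction). The median over the 50 genes was 0.85, against -0.52 over all genes tested. This split depends on the scaling of the arrays: the median over all genes was 0.18 after quantile normalization and 0.15 after median centring, and the matrix genes then divided 39 higher to 5 lower and 38 higher to 4 lower.

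The genes most above their brain level in wild-type muscle were genes of fibrous connective tissue. Col3a1 averaged 11.74 ± 0.58 in wild-type muscle and 7.33 ± 0.22 in wild-type brain (SD, n = 4 each), a difference of 4.40 (limma adjusted p = 1.63e-08). Thbs4 differed by 4.25, Lum (lumican) by 3.38, Dcn by 2.87, Col6a3, the longest type VI chain, by 2.51, and Comp by 2.39. Each of these 6 genes had all its wild-type muscle arrays above all its wild-type brain arrays. All 4 small leucine-rich proteoglycans, both crosslinking enzymes and 7 of 8 glycoproteins were called higher in muscle, as were 5 of 7 basement membrane collagens.

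The genes most below their brain level were minor and transmembrane collagens. Col25a1, a transmembrane collagen known from neurons, averaged 5.01 ± 0.24 in wild-type muscle and 9.83 ± 0.32 in wild-type brain (SD, n = 4 each), a difference of -4.82 (limma adjusted p = 5.84e-12). Col19a1, known from interneurons in brain, differed by -2.85, Col23a1, another transmembrane collagen, by -1.61, Col9a3 by -1.31 and Col11a1, a minor fibril-forming chain, by -1.27. Col16a1 differed by -0.65, but by 0.09 after quantile normalization and by 0.02 after median centring. All 3 tested transmembrane collagens were lower in wild-type muscle, and the fibril-associated collagens divided into 2 higher and 5 lower of 9. Sparc was the 1 glycoprotein not called, with 12.28 ± 0.34 in wild-type muscle and 12.85 ± 0.68 in wild-type brain (SD, n = 4 each).

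**Figure D5:**
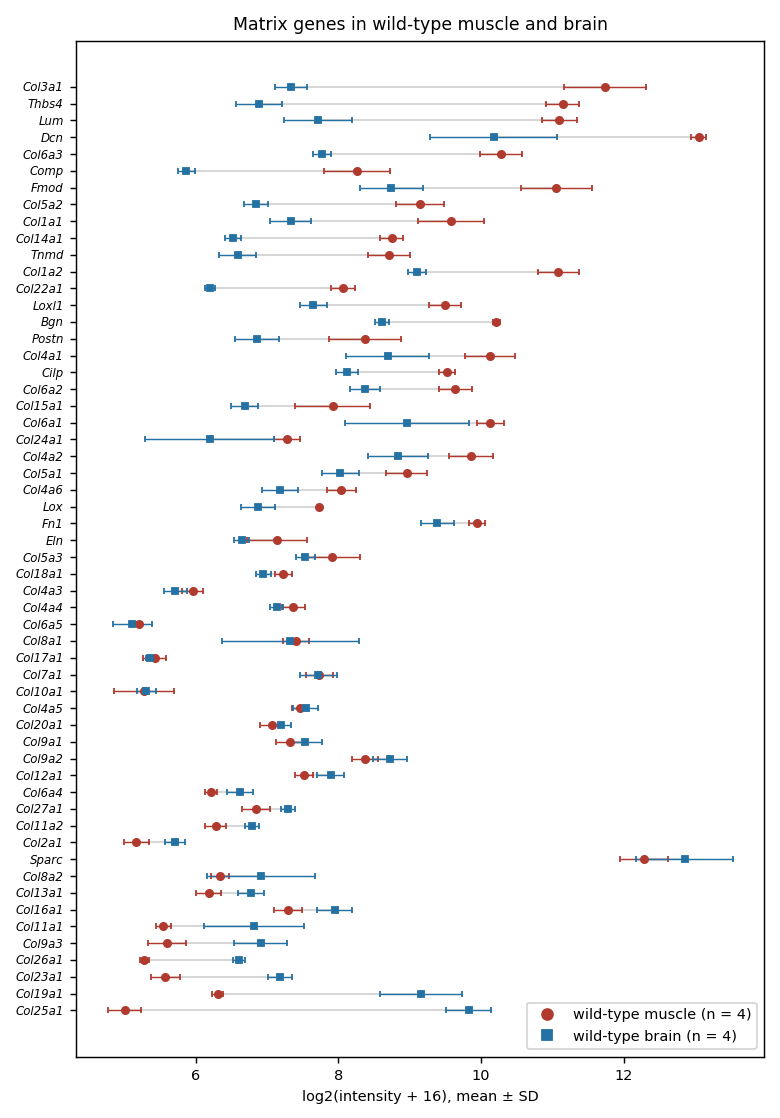
Mean level of the 56 matrix genes in wild-type muscle (circles) and wild-type brain (squares), as log2(intensity + 16) with ± SD over 4 arrays each, ordered by the difference. Col3a1 (4.40) is at the top and Col25a1 (-4.82) at the bottom, and levels of different probe sets are not comparable with each other.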

How the data were processed

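The assay was a 1-colour Affymetrix Mouse Genome 430 2.0 array per sample, 14 in all, with RNA extracted in Trizol per the labels' protocols. The deposited values are linear intensity values, 1 per probe set and array, made with PLIER and Affymetrix Expression Console, per the submitters' processing notes. Neither their versions nor a normalization is named there. How many molecules lie behind an intensity is unknown, and the number of arrays limits the precision.

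From 45101 probe sets, 64 controls were left out. Of the rest, 34945 carry 1 gene symbol, 932 several and 9160 none. Levels are log2(intensity + 16), with 1 probe set per gene (the highest mean over all arrays), and genes at or under the 0.25 quantile of mean level in a tissue were not tested there. The differences were tested with limma 3.58.1 in R 4.3.3 (lmFit and eBayes, Benjamini-Hochberg over all genes tested, threshold 0.05), per tissue for genotype and over all 14 arrays for the interaction and the tissue contrast. A fit over all 14 arrays has 1 estimate of the spread per gene for both tissues. The fits were tested on simulated data with independent normal noise. More genes were changed there, by up to 4 log2 units, than passed in the genotype comparisons or the interaction. An added difference of 0.5 was recovered in 38% of changed genes in muscle, 10% in brain and 12% in the interaction. An added difference of 1 was recovered in 88%, 88% and 74%. False calls numbered 4 in muscle, 6 in brain and 6 in the interaction. With fewer changed genes the adjusted threshold is stricter, so recovery in the data may be lower. The genes named with every value are those past the threshold, the 8 with the smallest p per genotype comparison and representatives of each role, plus the 6 most above and the 6 most below between tissues. Further genes are named from lists for the pathway and for cell types that were drawn up for this report. Genes of a role given beside its named members were chosen after their values were seen. The members and lists were chosen with earlier results of these data known. Alternatives changed the pseudocount, scaling, filter, probe set rule, fit and arrays. Promoter sequences are from RefSeq tables, in which all 56 genes matched by symbol. Windows on chromosome 18, where Lox lies, were left out, and 40 genes had a window among the rest.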

Additional observations from a re-analysis of the deposited data

Results flagged for a closer look

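The genotype difference of Cilp, the cartilage intermediate layer protein gene, differed between the tissues: the interaction, muscle minus brain, was 0.89 on the log2 scale (limma adjusted p = 0.027), from 0.54 in muscle and -0.35 in brain. All 3 PWS-IC del arrays were above the 4 wild-type arrays in muscle and all 3 were below them in brain. On the wild-type brain arrays Cilp had the same order as the summed skeletal muscle fibre markers, whose part in its values was not tested. Dixon's test was run on the 44 groups of 4 wild-type arrays of the named matrix genes and found 0 outlying arrays.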

How the results depend on the processing

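Between genotypes, deviations of same-numbered arrays correlated at 0.04, 0.30 and 0.005 in muscle and 0.01, -0.17 and -0.31 in brain. Between muscle and brain they correlated at 0.06, 0.02, -0.003 and 0.04 in wild-type and 0.07, 0.06 and 0.17 in PWS-IC del. So few values cannot settle whether array numbers pair the samples. With the number as a replicate block, 0 matrix genes and 2 of all genes passed in muscle, 0 and 3 in brain, 0 and 7 in the interaction, and 42 and 12270 between tissues; Col24a1 had an adjusted p of 0.262 and Cilp's interaction 0.121. In muscle, 2 matrix genes passed with a pseudocount of 64, with quantile normalization and with an intensity trend, 0 without a filter and 0 without PWS-IC del 2 and wild-type 2, 2 arrays chosen after seeing the data. Of all genes in muscle, 29 passed with a pseudocount of 64, 46 after quantile normalization, 25 after median centring, 8 without a filter, 29 with a filter at the 0.5 quantile, 48 with every probe set on its own, 59 with an intensity trend, 39 in a joint fit and 8 without those 2 arrays. Array weights gave 17 matrix genes (16 higher) and 1861 of all genes; they set PWS-IC del 2 at 5.88 and the other muscle arrays at 0.34 to 1.47. In the interaction 0 matrix genes passed after quantile normalization, 0 after median centring and 2 with array weights, and 73 of all genes with array weights. With every probe set on its own, 24 probe sets passed in brain, 27 in the interaction and 28403 between tissues, 75 of them matrix probe sets.

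Leaving out 1 array gave 0 to 1 matrix genes and 6 to 25 of all genes in muscle, 0 and 7 in brain, 0 to 2 and 7 to 16 in the interaction, and 37 to 42 and 11970 to 12357 between tissues. With 1 array left out, Col3a1 ranged from -0.14 to 0.74, Col4a1 from -0.35 to 0.19, Col4a2 from -0.36 to 0.22, Col6a1 from -0.28 to 0.13, Fn1 from -0.33 to 0.35 and Sparc from -0.36 to 0.23 in muscle. In brain, Col1a1 ranged from -0.24 to 0.079, Col1a2 from -0.13 to 0.0883, Col3a1 from -0.19 to 0.25, Dcn from -0.15 to 0.67, Lox from -0.071 to 0.14 and Sparc from -0.0362 to 0.58. Array weights turned Col4a1 (0.35), Col4a2 (0.40), Col6a1 (0.32), Sparc (0.49) and Fn1 (0.22) in muscle and Lox (-0.12) in brain. The mean of a gene's probe sets turned Sparc (0.000903) and Fn1 (0.0125) in muscle. In brain, Col1a1 was at 0.00422 after quantile normalization and 0.00693 after median centring, and Col1a2 at 0.0621 after median centring. Without wild-type 1 and 2, also chosen after seeing the data, Col6a1 was at 0.0116, Col1a1 at 0.11, Col1a2 at 0.0202, Col3a1 at -0.15, Lox at -0.13, Sparc at -0.40 and Dcn at -0.49. Between tissues, Col16a1 was at 0.0918 after quantile normalization and 0.0214 after median centring. The causes were not tested. Dim genes limit these results: 10 matrix genes in muscle and 14 in brain were not tested.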
